A study of Mus musculus with 2 samples.

Results

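The PGC-1 coactivators, the estrogen-related receptors (ERR) and factors for expression of the nuclear and mitochondrial genomes were examined in brown preadipocytes (D0) and differentiated brown adipocytes (D7). The 10 genes were chosen by function, as the rows of the table whose symbols are Ppargc1a, Ppargc1b, Pprc1, Esrra, Esrrb, Esrrg, Nrf1, Gabpa, Tfam and Tfb2m, out of 23361 rows with values. All 10 were found, each on a single row. RNA-Seq was performed on 1 library of D0 and 1 of D7. Replicates were thus lacking, and no difference was tested. The cells came from interscapular brown fat of newborn C57BL/6 mice. The labels give 20% serum for the isolation of the cells. According to the labels, T3 (1 nM) and insulin (0.1 μM) were present at both stages, in 10% serum, from 4 days before day 0. Indomethacin (0.125 mM), IBMX (0.5 mM) and dexamethasone (2 μg/ml) were added at day 0 for induction and left for 2 days, and D7 cells were collected on day 7. The labels call the cells primary cultures, whereas the methods of the study describe immortalization with large T. Those methods also name the substrain C57BL/6J and give other concentrations of insulin and dexamethasone. In them, insulin and T3 are first named in the medium given from day 0. The sources thus differ on whether D0 cells had insulin and T3. The methods name several pups as the source, and do not say whether the 2 libraries came from the same culture.

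PGC-1 coactivators bind transcription factors rather than DNA, and raise the expression of genes for mitochondria and fuel oxidation. ERRs are orphan nuclear receptors, which depend on such coactivators rather than on a hormone. Nuclear respiratory factor 1 (encoded by Nrf1) and GABP, also known as nuclear respiratory factor 2, act on nuclear genes for respiratory subunits and for the mitochondrial transcription machinery. Tfam and Tfb2m encode proteins that start transcription of mitochondrial DNA (mtDNA) together with the mitochondrial RNA polymerase. Brown fat is rich in mitochondria, and PGC-1α is known there as a coactivator induced by cold and cAMP signalling.

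The deposited values were FPKM, the number of fragments scaled by transcript length and by library size, so levels may be compared between genes. FPKM values were relative to about 21471371 fragments at D0 and 18265534 at D7. The number of fragments behind each value was recovered from these denominators and the length of the transcript, and is approximate for genes with several exons. Intervals are exact 95% intervals on these fragments. Being limited to counting error, they bear on the pair of libraries and not on the stages in general. A gene was called higher at a ratio of D7 to D0 of at least 2.0 and lower at a ratio of at most 0.5, as in the methods of the study. A gene at or under 3 fragments in a library was counted apart. The adipocyte label of D7 was checked with 7 adipocyte markers, whose summed FPKM was 82.2 at D0 and 18187 at D7. Of 6 brown adipocyte markers, 3 had more than 3 fragments in both libraries, and 2 of these 3 were higher (66.7%, beside 16.1% of all genes). The third, Prdm16, was under 2.0-fold, with FPKM of 0.835 and 1.02 and a ratio of 1.22 (0.965 to 1.53). Ucp1, 1 of the 3 counted apart, reached 4.57 FPKM in the D7 library and was listed at 0 in the other.

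Of the 10 genes, 9 had more than 3 fragments in both libraries. Ppargc1a, Ppargc1b, Esrra and Esrrg were higher at D7, Pprc1 was lower, and Nrf1, Gabpa, Tfam and Tfb2m differed by less than 2.0-fold. Thus 4 of 9 were higher, where 16.1% of 13466 genes over 3 fragments in both libraries were higher, and 1 of 9 was lower, where 12.3% were lower. Another 4 of 9 were under 2.0-fold, beside 71.7% of all genes. The 10 genes were chosen with earlier results of these data known, so these shares are descriptions and no independent support. Esrrb was counted apart, with about 3 fragments at D0. The 3 coactivators and 2 of the 3 receptors passed 2.0-fold in 1 direction or the other, whereas the 4 factors for expression of the nuclear and mitochondrial genomes did not. At a threshold of 1.5, Gabpa and Tfb2m were called higher too, which made 6 of 9.

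**Figure D1:**
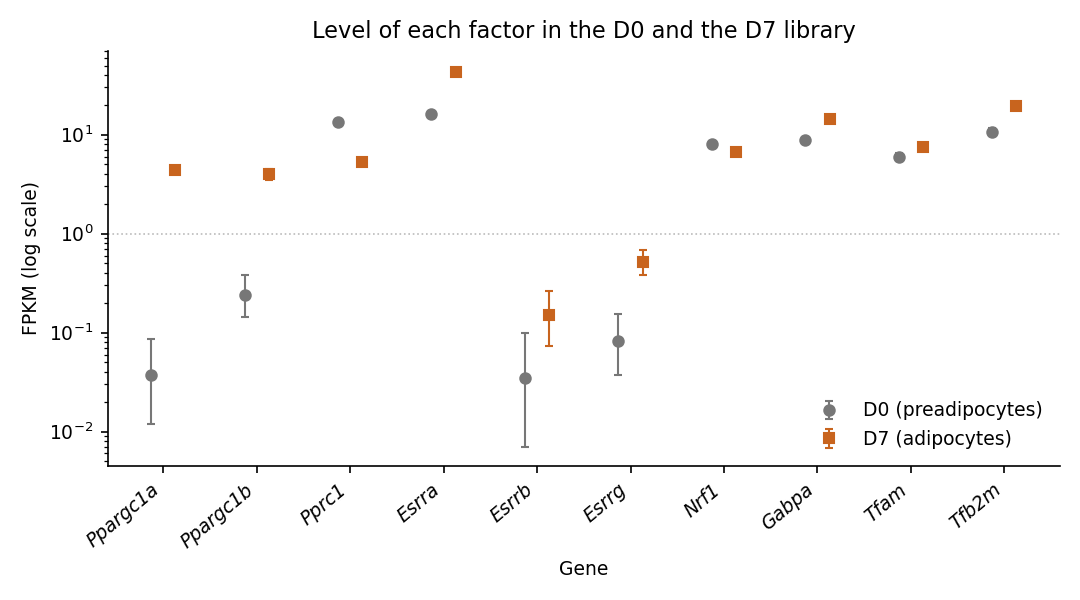
FPKM on a log scale (y axis) of the 10 genes (x axis) in the D0 library (circles) and the D7 library (squares), with bars for 95% counting intervals where they are larger than the symbol. Ppargc1a and Ppargc1b rose from under 1 at D0 to 4.41 and 3.97 at D7, and Esrrb and Esrrg stayed under 1 in both libraries.

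Ppargc1a (ENSMUSG00000029167.13, mm10 chromosome 5, 51454250 to 51567726, minus strand) encodes PGC-1α. The D0 library gave 0.0370 FPKM on about 5 fragments, and the D7 library 4.41 FPKM on about 506. The D0 library was thus near the limit of detection, since 3 fragments were worth an FPKM of 0.0222. The ratio was 119 (95% interval 50.7 to 368), and its log2 value of 6.89 lay at percentile 99.8 of all genes tested. It was the largest ratio of the 10 genes, and the width of its interval came from the few fragments at D0. With a pseudocount of 1 the ratio was 5.21, which still passed 2.0-fold.

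Ppargc1b (ENSMUSG00000033871.14, chromosome 18, 61298136 to 61400431, minus strand) encodes PGC-1β, a close relative of PGC-1α. It stood at 0.241 FPKM before differentiation (about 18 fragments) and at 3.97 FPKM after it (about 252). The ratio of 16.5 (10.2 to 28.2) lay wholly below the interval of Ppargc1a, so the ratio of Ppargc1a was the larger beyond counting error. At D0 the level of Ppargc1a was 0.154 times that of Ppargc1b (0.0446 to 0.429). At D7 it was 1.11 times that of Ppargc1b (0.953 to 1.30), an interval that includes 1. The miRNA gene Mir378a lies in an intron of Ppargc1b, and shares no exon bases with it.

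Pprc1 (ENSMUSG00000055491.14, chromosome 19, 46044886 to 46072915, plus strand) encodes the PGC-1-related coactivator PRC, which is known as a gene induced by serum in growing cells. It fell from 13.6 FPKM on about 1475 fragments to 5.32 FPKM on about 492. The ratio was 0.392 (0.354 to 0.435), so that D0 was 2.55-fold higher. Pprc1 was the only one of the 9 genes called lower. The other gene of the 10 with a ratio under 1 was Nrf1.

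The makeup of the PGC-1 family differed between the libraries, while its sum was nearly equal in the deposited FPKM. The 3 coactivators summed to 13.8 FPKM before and 13.7 FPKM after differentiation, which is 0.990 times as much. At D0, Pprc1 held 98.0% of this sum, Ppargc1b 1.74% and Ppargc1a 0.268%. At D7 the shares were 38.8% for Pprc1, 29.0% for Ppargc1b and 32.2% for Ppargc1a. The level of Pprc1 was 366 times that of Ppargc1a at D0 (157 to 1129), and 1.21 times at D7 (1.06 to 1.37). Over Ppargc1b, Pprc1 was 56.3 times as high at D0 (35.5 to 95.2) and 1.34 times as high at D7 (1.15 to 1.57). Pprc1 thus remained the highest of the 3 at D7, by a small margin. The near equality of the sums depends on the scaling. Division of each library by its median, after values under 0.01 were set to 0.01, shifted log2 ratios by -0.35.

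**Figure D2:**
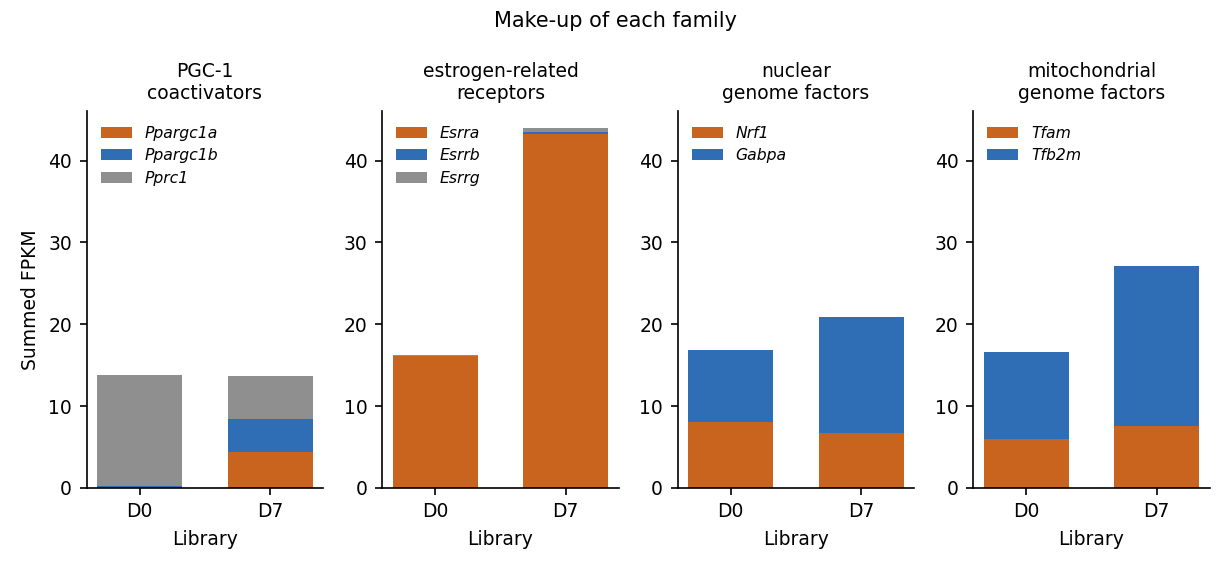
Summed FPKM (y axis) of each family in the D0 and the D7 library (x axis), with 1 color for each gene. The sum of PGC-1 coactivators was 13.8 and 13.7 but passed from mostly Pprc1 to a mixture of 3 genes, whereas the ERR sum rose from 16.2 to 44.0 and consisted almost wholly of Esrra.

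Esrra (ENSMUSG00000024955.14, chromosome 19, 6910977 to 6921813, minus strand) encodes ERRα, a partner of PGC-1α on genes of oxidative metabolism. Its level rose from 16.1 FPKM (about 714 fragments) to 43.3 FPKM (about 1629). The ratio was 2.69 (2.46 to 2.94), and the interval lay above 2.0. It was the highest of the 10 genes in both libraries. By level it ranked 4417 of all rows at D0 and 1958 at D7. Its deposited locus extends past the annotated gene and also holds exons of Trmt112 on the opposite strand, with 44.3 FPKM before and 31.4 FPKM after differentiation, and of Prdx5 on the same strand, with 267 and 343 FPKM. Whether strand was used in counting is not given in the sources used here, and the part of these genes in the value of Esrra was not tested.

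Esrrg (ENSMUSG00000026610.13, chromosome 1, 187608791 to 188214885, plus strand) encodes ERRγ, known from muscle, heart and brown fat. About 9 fragments gave it 0.0820 FPKM in the D0 library, and about 48 gave it 0.519 FPKM in the D7 library. The ratio was 6.33 (3.04 to 14.5). Although this ratio was larger than that of Esrra, Esrrg remained a rare transcript, and with a pseudocount of 1 its ratio was 1.40 and did not reach 2.0. Esrra was 197 times as high as Esrrg at D0 (103 to 432) and 83.5 times as high at D7 (63.2 to 115).

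Esrrb (ENSMUSG00000021255.17, chromosome 12, 86361117 to 86521628, plus strand) encodes ERRβ, best known from pluripotent cells. Levels of 0.0347 and 0.150 FPKM in the D0 and D7 libraries rested on about 3 and 11 fragments. The ratio of 4.31 had an interval from 1.14 to 24.1, and no call was made, since D0 did not exceed 3 fragments. Together the ERR genes summed to 16.2 FPKM before and 44.0 FPKM after differentiation, 2.71 times as much. Esrra held 99.3% of this sum at D0 and 98.5% at D7.

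Nrf1 (ENSMUSG00000058440.14, chromosome 6, 30047988 to 30153458, plus strand) went from 7.997 to 6.69 FPKM. The ratio of 0.837 (0.736 to 0.9504) lay below 1 beyond counting error, without approaching 0.5. Gabpa (ENSMUSG00000008976.16, chromosome 16, 84834925 to 84863779, plus strand), which encodes the DNA-binding subunit of GABP, went from 8.84 to 14.2 FPKM. The ratio was 1.61 (1.48 to 1.76). At D0 the level of Nrf1 was 0.905 times that of Gabpa (0.815 to 1.01), which counting error does not separate from 1, and at D7 it was 0.470 times (0.420 to 0.526). The deposited locus of Gabpa begins before the annotated gene and holds 3125 exon bases of Atp5j on the opposite strand. Atp5j stood at 147 and 184 FPKM in the D0 and D7 libraries, well above Gabpa, and its part in the value of Gabpa was not tested.

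GABP also needs a β subunit, which carries the activating part of the complex. Gabpb1 went from 10.7 to 5.91 FPKM, with a ratio of 0.552 (0.444 to 0.688). Gabpb2 went from 3.16 to 4.78 FPKM, with a ratio of 1.51 (1.36 to 1.69). The α subunit and one β subunit were thus above 1 and the other β subunit was below 1, all under 2.0-fold. Nrf1 should not be confused with Nfe2l1, which is also called Nrf1 in the literature, nor GABP with Nfe2l2, which is also called Nrf2. Nfe2l1 had a ratio of 1.26 (1.23 to 1.29) and Nfe2l2 a ratio of 0.834 (0.785 to 0.886).

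Tfam (ENSMUSG00000003923.14, chromosome 10, 71225464 to 71238280, minus strand) encodes the protein that packages mtDNA and bends its promoters. Its level was 5.94 FPKM (about 509 fragments) before and 7.58 FPKM (about 551) after differentiation. The ratio was 1.28 (1.13 to 1.44). Division of each library by its median, after values under 0.01 were set to 0.01, brought it to 0.999, so that the direction of Tfam depended on the scaling. Tfb2m (ENSMUSG00000026492.11, chromosome 1, 179528055 to 179546267, minus strand) encodes the factor that melts the mtDNA promoter. It went from 10.6 to 19.5 FPKM, and the interval of its ratio of 1.84 (1.65 to 2.06) includes 2.0. Tfb2m was 1.79 times as high as Tfam at D0 (1.58 to 2.02) and 2.58 times as high at D7 (2.31 to 2.88).

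**Figure D3:**
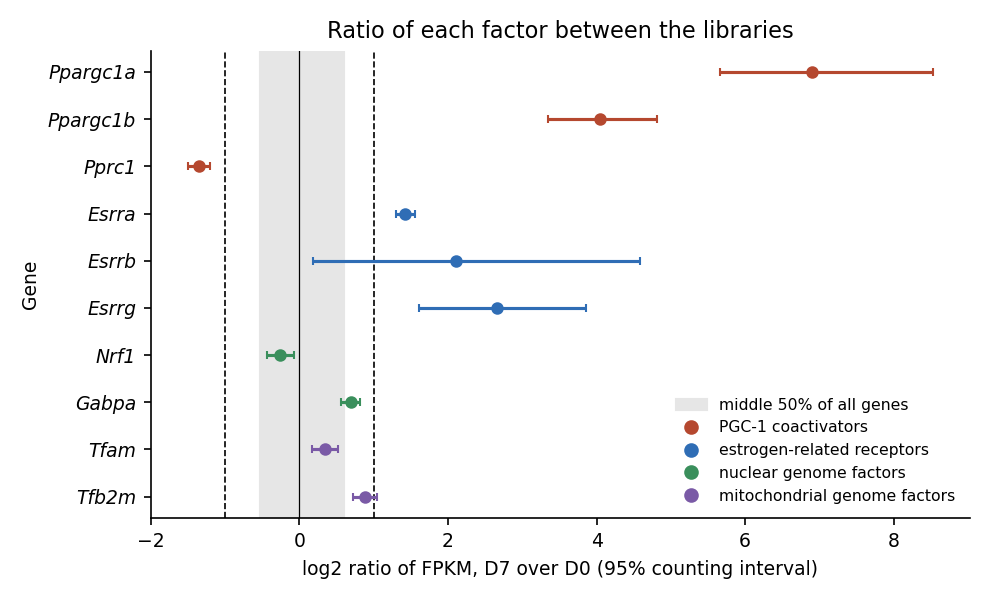
Log2 ratio of FPKM at D7 over D0 (x axis) of the 10 genes (y axis), with 95% counting intervals, colored by family. Dashed lines mark 2.0-fold, and the grey band holds the middle 50% of all genes tested, from -0.53 to 0.61. By their points, Nrf1 and Tfam lie inside the band, Gabpa and Tfb2m between the band and 2.0-fold, and the coactivators and receptors beyond 2.0-fold. The intervals of Gabpa and Esrrb reach toward lower ratios, to 1.48 and 1.14, and that of Tfb2m reaches 2.06.

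Ordered by level at D0, the genes were Esrra, Pprc1, Tfb2m, Gabpa, Nrf1, Tfam, Ppargc1b, Esrrg, Ppargc1a and Esrrb. Counting intervals of the levels overlapped between Gabpa and Nrf1, and between each pair of neighbours from Ppargc1b to Esrrb. At D7 the order was Esrra, Tfb2m, Gabpa, Tfam, Nrf1, Pprc1, Ppargc1a, Ppargc1b, Esrrg and Esrrb. Here intervals overlapped between Tfam and Nrf1 and between Ppargc1a and Ppargc1b. FPKM reached 1 in 6 of the 10 genes at D0 and in 8 at D7.

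The promoter sequences of 4 of these genes are shown because their RefSeq start lies within 100 bases of the start of the deposited locus and because they differ in direction: Esrra was higher, Pprc1 was lower, and Tfam and Tfb2m are textbook targets of NRF1 and GABP that stayed under 2.0-fold. Each window runs 5′ to 3′ on the strand of the gene, from 250 bases before to 50 after the start, in the build GRCm38.p6. Capitals mark matches on either strand to the motifs searched.
Esrra: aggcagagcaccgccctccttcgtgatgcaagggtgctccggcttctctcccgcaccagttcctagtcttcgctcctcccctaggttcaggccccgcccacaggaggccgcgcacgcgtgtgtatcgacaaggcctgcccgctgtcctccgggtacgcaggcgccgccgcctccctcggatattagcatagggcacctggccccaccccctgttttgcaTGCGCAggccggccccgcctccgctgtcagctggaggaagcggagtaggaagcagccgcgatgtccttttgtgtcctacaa
Pprc1: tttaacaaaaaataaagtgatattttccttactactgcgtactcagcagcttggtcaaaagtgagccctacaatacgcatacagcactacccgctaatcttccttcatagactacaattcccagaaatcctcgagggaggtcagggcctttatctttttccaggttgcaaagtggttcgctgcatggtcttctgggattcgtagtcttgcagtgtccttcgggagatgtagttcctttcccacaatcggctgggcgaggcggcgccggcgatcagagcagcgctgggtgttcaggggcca
Tfam: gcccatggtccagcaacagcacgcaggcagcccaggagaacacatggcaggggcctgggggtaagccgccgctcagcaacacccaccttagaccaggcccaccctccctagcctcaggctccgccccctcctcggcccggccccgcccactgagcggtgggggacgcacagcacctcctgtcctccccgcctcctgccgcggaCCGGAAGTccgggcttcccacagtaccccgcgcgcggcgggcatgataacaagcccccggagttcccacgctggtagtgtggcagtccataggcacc
Tfb2m: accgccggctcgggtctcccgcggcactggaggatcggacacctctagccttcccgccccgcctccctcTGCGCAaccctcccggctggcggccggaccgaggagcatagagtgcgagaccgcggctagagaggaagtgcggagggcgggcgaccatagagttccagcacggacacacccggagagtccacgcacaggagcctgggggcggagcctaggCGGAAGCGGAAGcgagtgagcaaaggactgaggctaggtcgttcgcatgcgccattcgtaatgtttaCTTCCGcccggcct

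The windows are chr19:6921759-6922058 for Esrra, chr19:46056289-46056588 for Pprc1, chr10:71237995-71238294 for Tfam and chr1:179546227-179546526 for Tfb2m. Motifs were searched on both strands in 14 windows of 9 of the genes. Of these genes, 7 had a window within 100 bases of the deposited start, and further windows of Esrrb, Esrrg and Nrf1 lay downstream of it. Ppargc1b was left out. The GABP motif CCGGAAGT was found in 1 of the 14 windows, that of Tfam, beside 3.89% of 32851 windows of all genes. Its core CGGAAG, which lies within it, was found in the windows of Gabpa, Tfam and Tfb2m, with 3 matches in Tfb2m, beside 16.9% of all windows. The only window of Gabpa starts 7.3 kb downstream of the start of its deposited locus, so that start was not searched. The letters TGCGCA, the core of the NRF1 motif, were found in the windows of Esrra and Tfb2m and in 7.76% of all. The ERR motif TCAAGGTCA and its core AAGGTCA were found in 0 of the 14 windows, beside 0.423% and 4.72% of all. The only window of Ppargc1a starts 13.8 kb upstream of the start of its deposited locus, so the sequence at the deposited start was not searched. This window holds the shortened CRE TGACGT, as do 7.51% of all windows, and not the whole CRE TGACGTCA, which 1.79% hold. These matches are descriptions of the letters, and no binding was measured.

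Genes around these factors were then counted, in lists that were also chosen with earlier results of these data known. The list of mtDNA transcription and RNA processing held 28 genes, all with over 3 fragments in both libraries. Of these, 5 were higher, 0 were lower and 23 were under 2.0-fold, so 17.9% were higher, beside 16.1% of all genes, and 0% lower, beside 12.3%. The median log2 ratio was 0.83, beside -0.01 over all genes tested, and 25 of 28 had a ratio above 1. Polrmt, the mitochondrial RNA polymerase that works with Tfam and Tfb2m, had a ratio of 1.502 (1.34 to 1.68). Tfb1m, the relative of Tfb2m that methylates mitochondrial rRNA, had a ratio of 1.76 (1.35 to 2.30). The highest ratios were those of Mterf1b (3.93), Fastkd1 (3.72) and Mterf4 (2.67), which bind mtDNA or its RNA. Mterf1b has a near-identical copy, Mterf1a, so its value is uncertain. The lowest were those of Fastkd3 (0.742), the oligonucleotide exonuclease Rexo2 (0.778) and Fastkd2 (0.938). Most of this machinery thus resembled Tfb2m, with ratios above 1 but under 2.0.

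The list of mtDNA replication, nucleoid and nucleotide supply held 20 genes, of which 3 were higher (15%, beside 16.1% of all genes), 0 were lower (beside 12.3%) and 17 were under 2.0-fold. The median log2 ratio was 0.40. Endog, a mitochondrial nuclease, had the highest ratio (3.61), followed by the matrix protease Lonp1 (2.21), which is known to degrade TFAM, and the pyrimidine nucleotide carrier Slc25a33 (2.07). The lowest ratios were those of Rnaseh1 (0.681), Lig3 (0.759) and Exog (0.788).

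Genes known as targets of these factors showed larger ratios than the mtDNA machinery. These lists were written from textbook knowledge with earlier results of these data known, and are no independent support. Of 20 ERR target genes over 3 fragments in both libraries, 18 were higher (90%, beside 16.1% of all genes) and 0 were lower (beside 12.3%), with a median ratio of 4.42. The highest were Cpt1b (27.7), which brings fatty acids into muscle and brown fat mitochondria, the pyruvate dehydrogenase kinase Pdk4 (13.7) and the acyl-CoA dehydrogenase Acadm (12.8). The lowest were the nucleotide translocator Slc25a4 (0.881), the fusion protein Mfn2 (1.96) and the malate dehydrogenase Mdh2 (2.53). Ucp1 was counted apart, as D0 was at 0, and Ckmt2 was listed at 0 in both libraries. Of 23 NRF1 and GABP target genes, which share Polrmt and Tfb1m with the mtDNA transcription list and Cycs and Cox5b with the ERR targets, 17 were higher (73.9%, beside 16.1% of all genes) and 0 were lower (beside 12.3%), with a median ratio of 2.61. Cytochrome c (Cycs, 4.94), the heme synthesis enzyme Alas1 (4.16) and Sdhb (3.14) were the highest. Tomm34 (0.733), the import receptor subunit Tomm20 (0.792) and the copper chaperone Cox17 (1.496) were the lowest. The ratios of Nrf1 (0.837) and Gabpa (1.61) were below the median of their target list. Of the receptors, Esrra (2.69) was below the median of the ERR targets and Esrrg (6.33) above it, and Esrrb, counted apart, had 4.31.

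**Figure D4:**
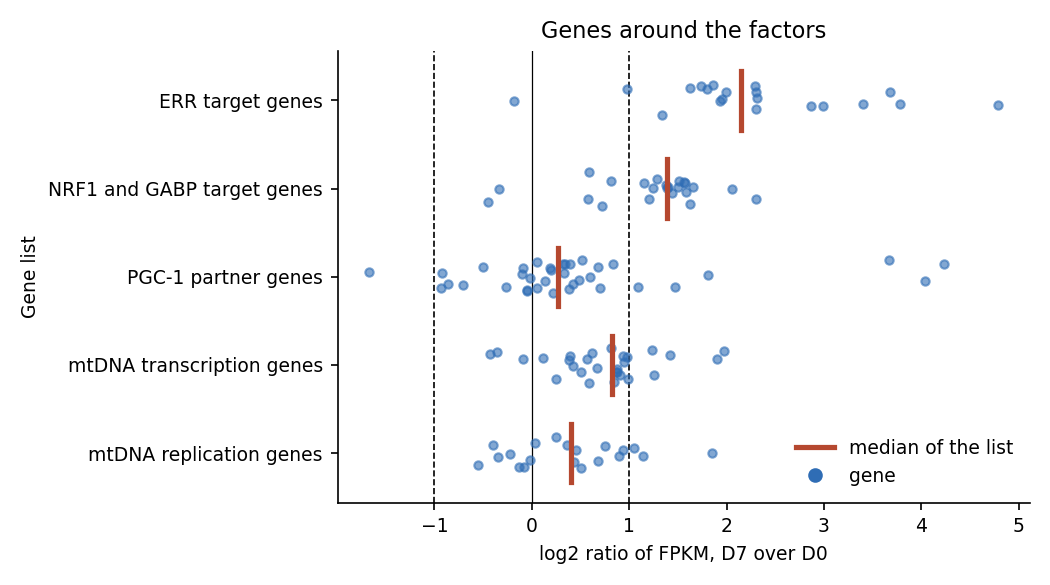
Log2 ratio of FPKM at D7 over D0 (x axis) of genes in 5 lists (y axis), with 1 point for each gene over 3 fragments in both libraries and a bar for the median. Dashed lines mark 2.0-fold. Medians were 2.14 for ERR targets, 1.39 for NRF1 and GABP targets, 0.27 for PGC-1 partners, 0.83 for mtDNA transcription and 0.40 for mtDNA replication.

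Partners and regulators of the PGC-1 coactivators were measured in 36 genes over 3 fragments in both libraries. Of these, 6 were higher (16.7%, beside 16.1% of all genes), 1 was lower (2.78%, beside 12.3%) and 29 were under 2.0-fold, with a median log2 ratio of 0.27. The share called higher was thus near that of all genes. The nuclear receptor Ppara rose from 0.219 to 4.11 FPKM, with a ratio of 18.8 (11.3 to 34.4). Prkaa2, a catalytic subunit of the AMP-activated kinase that phosphorylates PGC-1α, had a ratio of 16.4, whereas the other catalytic subunit, Prkaa1, had a ratio of 1.26. Lpin1, a phosphatidate phosphatase that is also a coactivator with PGC-1α, had a ratio of 12.8. Nrip1, which encodes the corepressor RIP140 and opposes PGC-1α on many of its targets, was also higher, with FPKM of 3.22 and 11.3 and a ratio of 3.51 (3.18 to 3.88). Perm1, a muscle gene induced by PGC-1 and ERR, had a ratio of 1.31 (0.856 to 2.00) at FPKM of 0.559 and 0.733. The lowest ratios were those of the arginine methyltransferase Prmt1 (0.314), which was the one called lower, and Mybbp1a (0.522), a repressor of PGC-1α. Of 2 genes counted apart, Nr0b2 was listed at 0 in both libraries and Camk4 had under 3 fragments at D0.

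Markers of other cells and states moved between the libraries as well. Fewer cells of a type and less RNA per cell cannot be told apart in such bulk samples. Of 10 proliferation genes, 8 were lower (80%, beside 12.3% of all genes) and 0 were higher (beside 16.1%). All 10 had a ratio below 1, with a median of 0.289, and so moved in the direction of Pprc1. Their summed FPKM was 136 at D0 and 81.3 at D7, of which Ccnd1, nearly level between the libraries, held 57.7 and 56.7. Of 9 macrophage markers, 8 were higher (88.9%, beside 16.1% of all genes) and 0 were lower (beside 12.3%). Their summed FPKM was 146 at D0 and 516 at D7, which moved with Ppargc1a, Ppargc1b, Esrra and Esrrg. The part of dividing cells and of macrophages in these results was not tested. Of 8 skeletal muscle markers, Myod1 and Ckm were listed at 0 in both libraries, and of 5 neuronal markers Rbfox3 was. The summed FPKM of these lists fell from 51.7 to 17.0 and from 102 to 21.1, mostly by Acta1 and Tubb3. Other markers of these lists went up, with Mb listed at 0 in the D0 library and at 12.1 FPKM in the D7 library, and Map2 at a ratio of 8.70. Of 5 endothelial markers, Tie1 was listed at 0 in both libraries, and their summed FPKM was 0.995 and 2.32. Of 4 erythroid markers, 3 were listed at 0 in both libraries.

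Other scalings left most of these values in place. Ppargc1a, Ppargc1b, Pprc1 and Esrra kept their direction and passed 2.0-fold under all 8 alternatives that apply to a single ratio. Their ratios ranged from 5.21 to 123 for Ppargc1a, from 4.01 to 17.0 for Ppargc1b, from 0.307 to 0.434 for Pprc1 and from 2.10 to 2.77 for Esrra. Nrf1, Gabpa and Tfb2m kept their direction and remained under 2.0-fold under the same 8.

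**Figure D5:**
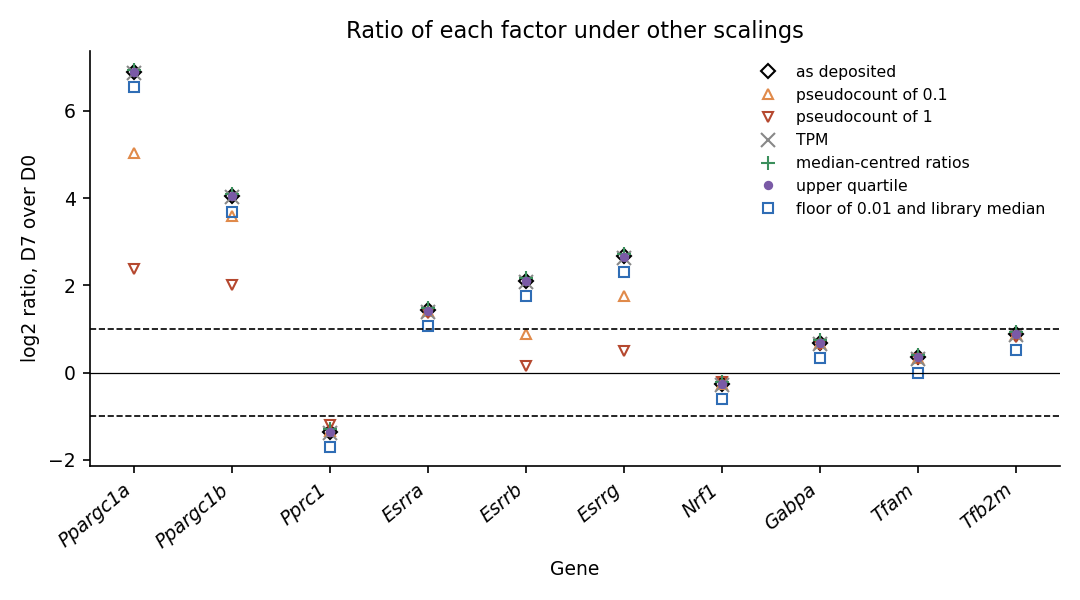
Log2 ratio at D7 over D0 (y axis) of the 10 genes (x axis) from the deposited FPKM and under 6 alternatives that change the value, with dashed lines at 2.0-fold. A pseudocount of 1 brought the rare transcripts Esrrb and Esrrg under 2.0-fold, to 1.11 and 1.40, and the floor with the library median moved genes above the floor by -0.35.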

How the data were processed

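The authors removed low-quality, adaptor, duplicate and rRNA reads, aligned the rest with SOAP2 against genes and the mm10 genome (Bowtie2 also stands in the submitters' processing notes), and deposited 1 FPKM value per gene for each of the 2 libraries. Of 27324 rows, 23361 held values. They were used without rescaling, and ratios of D7 to D0 without a pseudocount.

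Fragments were recovered from 600 single-exon genes of at least 600 bp. With 179 bp (D0) and 182 bp (D7) taken from each length, all 79 and 90 values of up to 20 fragments lay within 0.1 of a whole number. Other lengths came from GENCODE M21, by named transcript or longest coding transcript. Intervals are exact Clopper-Pearson intervals for ratios and exact Poisson intervals for levels, at 95%. With 1 library per stage no test across replicates was possible. Precision was limited by fragments, from 3 to 1629 for the 10 genes.

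Members and lists were chosen with earlier results of these data known. Beside the 10 genes and 8 fixed partners or namesakes, up to 3 highest and 3 lowest ratios per list were named, at 10 fragments or more in a library. One gene that falls under this rule is not reported here. Where a partner already fell under that rule it was named once. Marker genes are given by list, and Prkaa1 was named after its value was seen. Alternatives were pseudocounts of 0.1 and 1, TPM, median centring, the upper quartile, a filter at FPKM of 1, a threshold of 1.5, summing of rows with a shared symbol, and a floor of 0.01 with the library median. Genes encoded by mtDNA were not analysed here. Promoters are from RefSeq (GRCm38.p6, the primary assembly of mm10). A longer NRF1 motif was searched first, matched no window of the members and is not shown, so that the core alone is given for NRF1 after its result was known. Scripts, tested on simulated data, ran on matplotlib 3.10.9, scipy 1.17.1, numpy 2.4.6 and pandas 2.3.3 under Python 3.11.15.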

Additional observations from a re-analysis of the deposited data

How the results depend on the processing

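The 4 genes called higher became 3 with a pseudocount of 1 or the filter at FPKM of 1, and 6 at a threshold of 1.5. The 1 called lower was 1 throughout. These counts lay within 1.5 times the reported ones, as did the 18 ERR targets and the 17 NRF1 and GABP targets, and 83 of 90 counts in all. The other 7 counts moved by over 1.5 times. A threshold of 1.5 gave 18 mtDNA transcription genes higher, 7 mtDNA replication genes higher, and 10 PGC-1 partners higher and 5 lower. The floor of 0.01 with the library median, which shifted log2 ratios by -0.35, gave 3 and 1 mtDNA genes higher in the same order and 5 PGC-1 partners lower. Both alternatives move ratios or the limit by construction. Of 78 alternative ratios of the 10 genes, 11 lay outside their counting interval. Shifts of the other scalings were -0.03 for TPM, 0.05 for median centring and 0.00 for the upper quartile. No paired analysis was possible because there was 1 library per stage, and for the same reason no library could be left out. At this depth Esrrb could not be called, and the ratio of Ppargc1a is known only within its interval from 50.7 to 368.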
